A study of Mus musculus with 10 samples.

Results

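The T cell receptor (TCR) has no signalling domain of its own. It signals through the CD3 chains and a short series of kinases, adaptors and effector enzymes. The 34 genes described here encode the CD3 chains, the co-receptor CD4, the phosphatase CD45, and the kinases, adaptors, effectors and inhibitors nearest to the receptor. They were chosen by name from the 54532 genes of the deposited table, where all 34 were found, and all 34 passed the filter on low counts. The libraries were made with Smart-seq2, which copies whole transcripts from small amounts of RNA, from sorted regulatory T cells (Tregs), which are CD4 T cells defined by Foxp3 that keep other immune cells in check. The sort gate required CD45, CD3, CD4 and CD25 on the surface and a GFP signal, so CD3 and CD4 protein was itself a criterion. The Tumor group held 5 libraries from tumours of the colon in mice that were both Apc Min/+ and Foxp3 DTR, and the WT group held 5 libraries from the colon of Foxp3 DTR mice whose genotype is otherwise labelled WT. Apc Min/+ mice carry 1 truncated copy of the tumour suppressor Apc and form intestinal tumours. Foxp3 DTR mice, the background of both groups, express a diphtheria toxin receptor from Foxp3, and the labels name no toxin or other treatment. All mice were male, 16 weeks old and on C57BL/6. Genotype and tissue (tumour or WT colon) differed together and cannot be told apart. Whether each of the 5 samples of a group was a separate animal is not stated, and p-values therefore measure only the spread between these samples, which may be technical.

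As background, the kinase Lck, held near the receptor by CD4, phosphorylates paired tyrosines in the tails of the CD3 chains, and Zap70 docks there and phosphorylates the adaptors Lat and SLP-76. This platform recruits phospholipase C gamma 1, whose products open calcium and diacylglycerol branches that end in NFAT, NF-kappaB and Ras signalling. Phosphatases, ubiquitin ligases, diacylglycerol kinases and Csk set the threshold. In Tregs, continued TCR signalling is known to be needed for their activated state and suppressive function.

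Library content differed in ways that bear on every value below. Libraries held 3054435 to 7747699 counts in Tumor and 1676229 to 8412887 in WT. The geometric mean of 9 T cell genes outside the 34 (Cd2, Cd5, Cd6, Cd28, Cd96, Skap1, Trac, Trbc1 and Trbc2, termed the T reference) was 179 to 345 CPM (read counts scaled to a common library size) in Tumor and 9.43 to 100.3 CPM in WT. In bulk libraries, fewer cells of a type and less RNA per cell cannot be told apart. The Treg markers Foxp3, Il2ra, Ctla4 and Ikzf2 were detected in both groups and summed to 1497 to 3327 CPM in Tumor and 63.6 to 725 CPM in WT. The 12 epithelial markers summed to 22189 and 31231 CPM in WT replicates 1 and 2, 143 to 225 in the other WT libraries and 33.4 to 4541 across Tumor. The 12 macrophage and monocyte markers summed to 1343 to 6097 CPM in Tumor and 65.7 to 165 CPM in WT. No measured marker of any list was at 0 in every library of a group. Dendritic cell markers reached 360.1 and 375 CPM in the highest Tumor and WT library, B and plasma cell markers 360.3 and 3739, NK cell markers 23.3 and 88.7, and the 3 measured CD8 and gamma-delta T cell markers 85.8 and 65.1. For stromal and endothelial markers these values were 220.4 and 279, and for mast cell and granulocyte markers 1776 and 289. Reads over 1466 olfactory and vomeronasal receptor genes, taken as a gauge of reads that stem from no T cell transcript, gave 1.05 to 2.02 CPM per kilobase in Tumor and 1.22 to 4.19 in WT. The part of this RNA in the results below was not tested, except that fold changes are given on 2 scales: TMM (trimmed mean of M values, which aligns most genes) and the T reference (each library set to its T reference genes). On the second scale a value near 0 means that a gene differed as much as other T cell genes did.

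Tumor was set against WT to see how the receptor machinery of Tregs in Apc Min/+ colon tumours compares with that in colon. On TMM all 34 genes had a positive log2 fold change (5 did with T reference scaling), with a median of 1.73 against -0.20 over all 21414 genes tested. Of the 34, 5 rose in Tumor (Cd3g, Cd3d, Cd247, Lat and Zap70), where 1.37% of all tested genes did, and 0 fell, where 0.219% did (adjusted p below 0.05 in edgeR's quasi-likelihood test, with Benjamini-Hochberg adjustment; DESeq2 also called 0 lower, and 0 were lower at an unadjusted p below 0.05). A further 20 did not pass and had an unadjusted p below 0.05, which makes 25 in all, against 7.75% of tested genes at that level in this direction. For 15 of the 34 the lowest Tumor library was above the highest WT library, against 4.38% of tested genes. With T reference scaling 0 of the 34 were called higher, against 0.0887% of tested genes (0 at an unadjusted p below 0.05), and 13 were called lower, against 88.1% of tested genes. On that scale the median was -1.34 for the 34 genes and -3.54 for all tested genes.

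The 5 calls depended on single libraries. Without Tumor replicate 2, Tumor replicate 3 or WT replicate 1, 0 of the 34 were called higher (22, 22 and 20 at an unadjusted p below 0.05). Calls were also few among all tested genes in these fits, at 75 of 23669, 63 of 23655 and 63 of 22926. At an unadjusted p below 0.05, 1404, 1296 and 1408 of these tested genes were higher. Without Tumor replicates 1, 4 and 5 in turn, 2, 2 and 3 of the 34 were called. Beside them stood 120 of 23323, 105 of 23269 and 197 of 23191 tested genes. Without WT replicates 2 to 5 in turn, 4, 6, 9 and 7 of the 34 were called. Beside these stood 350 of 23518, 250 of 23100, 345 of 22681 and 266 of 22154 tested genes. Without WT replicates 1 and 2, 10 were called, against 6.4% of tested genes, and without WT replicates 3, 4 and 5, 25 were called, against 2.32% of tested genes. DESeq2 called 15 higher, against 3.18% of tested genes. All 5 genes were among the calls of each of these last 3 fits.

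**Figure D1:**
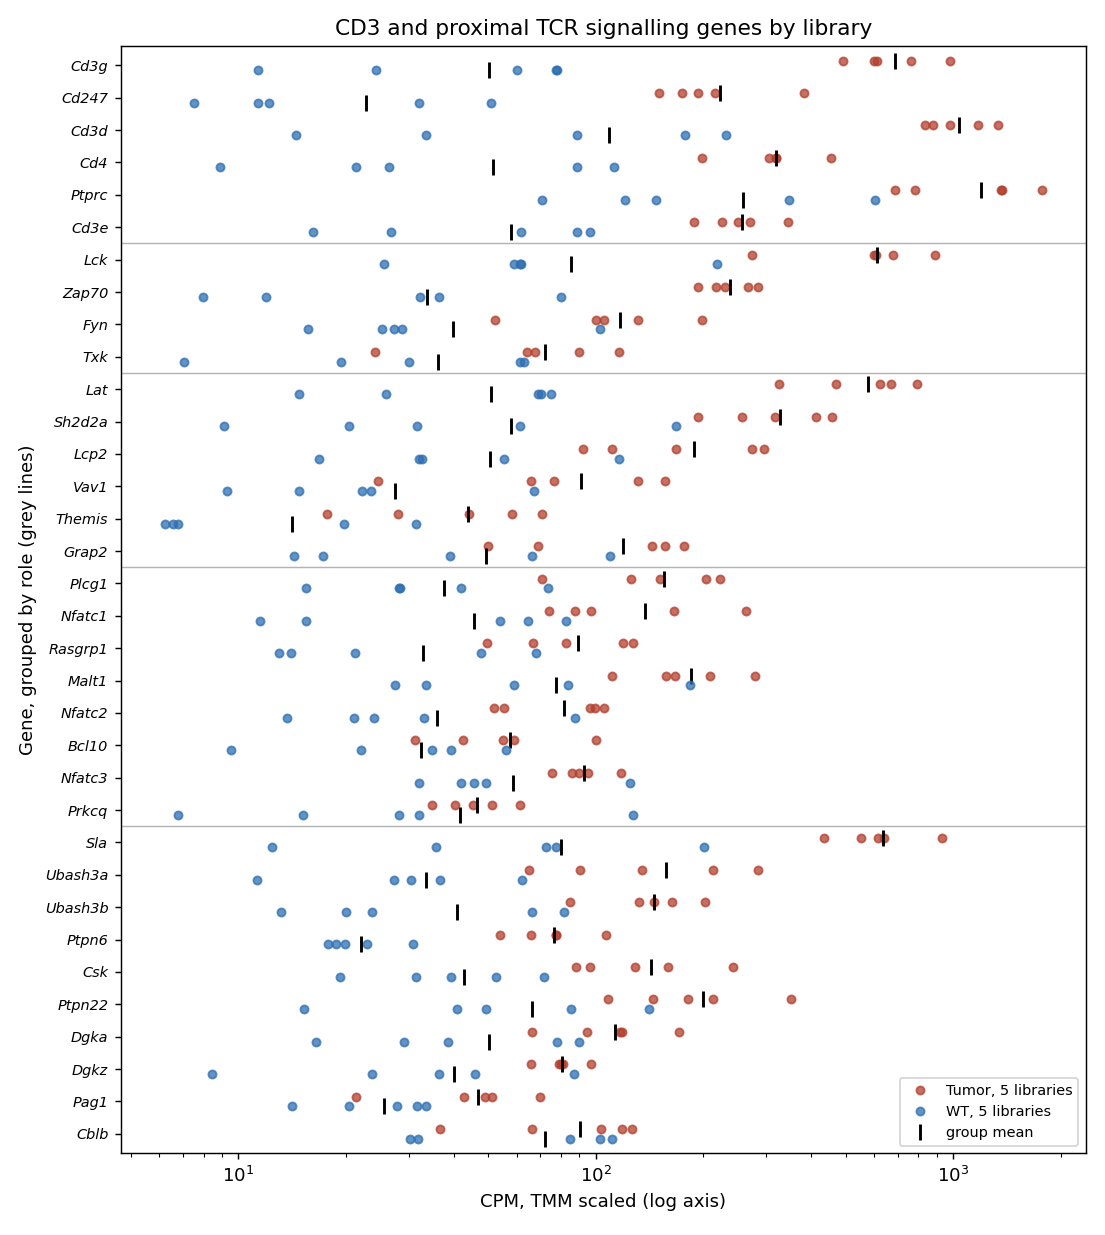
Each point is 1 library (x axis: CPM, TMM scaled, log axis), 5 Tumor and 5 WT for each of the 34 genes (y axis, grouped by role), and black ticks are group means. The Tumor points of the 6 genes in the top block lie to the right of all WT points, and the 2 groups overlap for every gene of the effector block.

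The CD3 chains, which carry the signal of the receptor into the cell, together with Cd4 and Ptprc gave 3 rises among 6 genes, beside 1.37% of all tested genes. The groups overlapped for none of the 6, where 4.38% of tested genes had every Tumor library above every WT library. The median log2 fold change of the 6 was 2.94 on TMM and 0.14 with T reference scaling. Cd3d, Cd3g and Cd3e lie next to each other on chromosome 9 (mm10). Cd3g (ENSMUSG00000002033, 44969572 to 44980431, minus strand) and Cd3d (ENSMUSG00000032094, 44981786 to 44987339, plus strand) start back to back with 1354 bases between them, and Cd3e (ENSMUSG00000032093, 44998740 to 45009627, minus strand) lies 11400 bases beyond Cd3d. Their promoter windows (RefSeq, GRCm38.p6, 250 bases before to 50 after a start) are shown because 2 of these neighbours were called by edgeR on TMM and the third was not, while DESeq2 called all 3. Capitals mark matches, on either strand, to AGGAAG (an ETS core), TGTGGT (RUNX), CAGCTG (E-box) or TATAAA. The motifs do not overlap each other in these windows.
Cd3g, chr9:44980382-44980681, minus strand: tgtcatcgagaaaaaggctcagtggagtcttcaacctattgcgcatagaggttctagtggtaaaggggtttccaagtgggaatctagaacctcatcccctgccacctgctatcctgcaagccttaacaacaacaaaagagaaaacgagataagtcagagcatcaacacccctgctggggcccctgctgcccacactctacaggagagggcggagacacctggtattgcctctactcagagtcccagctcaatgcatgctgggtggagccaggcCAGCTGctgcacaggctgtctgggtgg
Cd3d, chr9:44981536-44981835, plus strand: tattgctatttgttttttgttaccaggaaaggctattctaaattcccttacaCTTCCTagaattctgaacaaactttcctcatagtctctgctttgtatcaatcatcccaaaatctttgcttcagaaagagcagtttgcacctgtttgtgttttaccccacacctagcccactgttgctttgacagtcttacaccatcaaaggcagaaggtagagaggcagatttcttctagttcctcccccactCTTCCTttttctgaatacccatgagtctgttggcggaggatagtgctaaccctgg
Cd3e, chr9:45009562-45009861, minus strand: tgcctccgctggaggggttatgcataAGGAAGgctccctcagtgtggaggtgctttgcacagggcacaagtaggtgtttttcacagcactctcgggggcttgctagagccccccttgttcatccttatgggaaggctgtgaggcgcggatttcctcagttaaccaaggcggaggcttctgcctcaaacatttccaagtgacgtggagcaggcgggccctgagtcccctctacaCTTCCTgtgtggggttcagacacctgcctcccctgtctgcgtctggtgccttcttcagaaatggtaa
AGGAAG was found at 2 places in the windows of Cd3d and Cd3e and at 0 in that of Cd3g, and among the other called genes at 2 for Cd247, 2 for Lat and 1 for Zap70. Of all 32851 promoter windows of that length, 35.4% held it. CAGCTG was found at 1 place in the Cd3g window and in none of the other 5 (16.3% of all windows held it), TGTGGT at 1 in that of Lat (16.8% of all windows), and TATAAA in none of the 6 (13.6% of all windows). These matches are letters in a window and say nothing of binding.

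Cd3g, which encodes CD3 gamma, stood at 491, 761, 981, 611 and 600.2 CPM in Tumor replicates 1 to 5 and 24.3, 77.8, 60.1, 77.5 and 11.3 CPM in WT replicates 1 to 5. The lowest Tumor library was above the highest WT library, and WT replicate 5 was lowest. Its log2 fold change of 3.78 ± 0.73 (SE, adjusted p = 0.0153) was the largest of the 34, and with T reference scaling it was 0.84 ± 0.83 (adjusted p = 0.326). Per kilobase, Cd3g in WT replicate 5 (25 reads) was at 1.004 times the density of reads over olfactory and vomeronasal receptor genes. In the other WT libraries it was at 3.25 to 19.5 times. The call of Cd3g held in 7 of the 10 fits that left out 1 library (adjusted p up to 0.0639).

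Cd3d, for CD3 delta, was measured at 982, 1332, 1176, 833 and 881 CPM in Tumor replicates 1 to 5 and 33.5, 88.6, 178, 231 and 14.5 CPM in WT replicates 1 to 5. WT replicates 3 and 4 were the highest of their group and still below all Tumor libraries. It rose by 3.25 ± 0.80 log2 units (adjusted p = 0.046), a call that held in 2 of the 10 fits without 1 library (adjusted p up to 0.147), against 0.63 ± 0.92 with T reference scaling (adjusted p = 0.504). Cd247, the zeta chain with the most signalling motifs of the complex (ENSMUSG00000005763, chromosome 1, 165788681 to 165877277, mm10), had 174, 194, 381, 215 and 151 CPM in Tumor replicates 1 to 5 and 7.49, 32.1, 12.2, 51.0 and 11.3 CPM in WT replicates 1 to 5. Tumor replicate 3 stood above the other Tumor libraries, and the groups did not overlap. Its log2 fold change was 3.29 ± 0.66 (adjusted p = 0.0176, held in 7 of 10 such fits, up to 0.0669) and 0.38 ± 0.76 with T reference scaling (adjusted p = 0.622). Per kilobase, Cd247 stood at 0.614, 4.94, 0.547, 4.18 and 0.616 times the density of reads over olfactory and vomeronasal receptor genes in WT replicates 1 to 5. In Tumor it stood at 14.0 to 68.0 times. The part of such reads in the values of Cd247 was not tested. Exons of Cd247 overlap those of Pou2f1 on the other strand, which had 1458 reads over all libraries against 5763 for Cd247.

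Cd3e, for CD3 epsilon, did not pass in edgeR on TMM and was called higher by DESeq2 (adjusted p = 0.0236). It was at 226, 270.2, 346, 250.4 and 188 CPM in Tumor replicates 1 to 5 and 16.1, 26.7, 88.7, 61.9 and 96.2 CPM in WT replicates 1 to 5. The groups did not overlap, and WT replicates 3 and 5 were the highest WT libraries. On TMM the log2 fold change was 2.15 ± 0.62 (adjusted p = 0.0895) and it was -1.12 ± 0.81 with T reference scaling (adjusted p = 0.182). Per kilobase the 4 chains stood in the order Cd3d, Cd3g, Cd3e, Cd247 in 5 of 5 Tumor libraries and in WT replicates 1, 2 and 4. In WT replicate 3 Cd3e was above Cd3g (21.7 and 18.4 CPM per kilobase), and in WT replicate 5 it was above Cd3d as well (23.6 and 8.0), where Cd3e had 212 reads and Cd3d, Cd3g and Cd247 had 32, 25 and 25. Cd3d over Cd3e, both per kilobase, was 7.48 to 11.1 in Tumor, 4.51 to 8.38 in WT replicates 1 to 4 and 0.339 in WT replicate 5. The log2 ratio of Cd247 to Cd3e per kilobase was -0.64 ± 0.24 in Tumor and -1.79 ± 1.5 in WT (SD, n = 5), a difference of 1.15 that was not larger than the spread between WT libraries (exact permutation test, 2-sided, p = 0.167, adjusted over 7 pairs 0.389). It was 0.74 to 1.57 without single libraries, 1.81 without WT replicates 1 and 2 and 0.17 without WT replicates 3, 4 and 5.

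**Figure D2:**
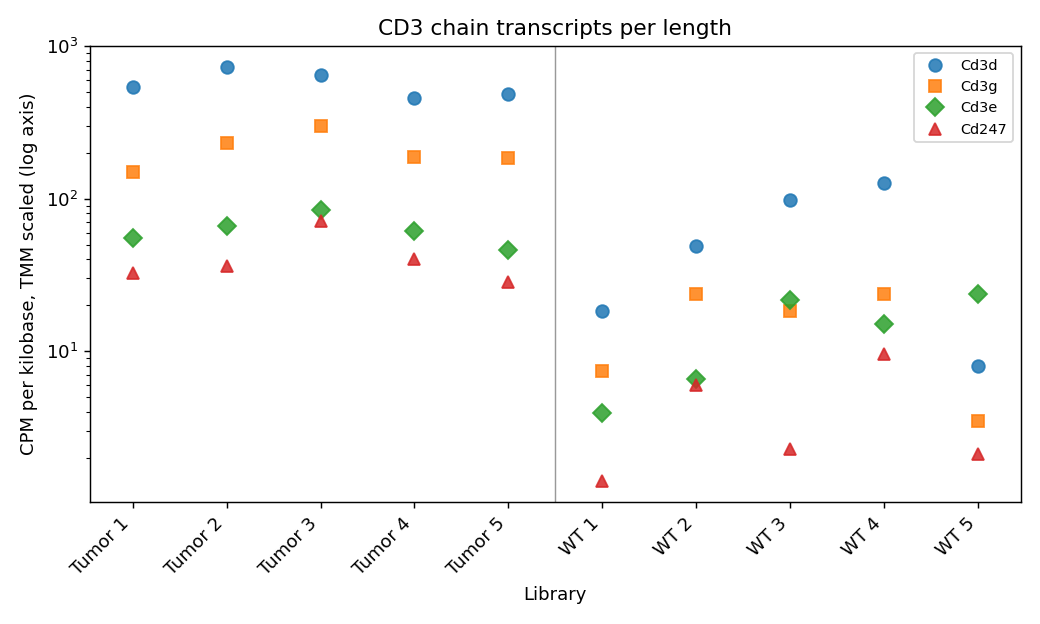
Levels of the 4 CD3 chains in each library (x axis), in CPM per kilobase of gene length on a log axis. The chains keep 1 order in all 5 Tumor libraries, and in WT replicate 5 Cd3e lies above Cd3d.

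Cd4, the co-receptor that brings Lck to the receptor and a marker of the sort, stood at 305, 319, 457, 319 and 198 CPM in Tumor replicates 1 to 5 and 8.89, 26.4, 113, 88.8 and 21.3 CPM in WT replicates 1 to 5. All Tumor libraries were above all WT libraries, and WT replicate 1 was lowest. Its log2 fold change of 2.63 ± 0.71 did not pass in edgeR on TMM (adjusted p = 0.0697; called higher by DESeq2, adjusted p = 0.0116) and was -0.10 ± 0.75 with T reference scaling (adjusted p = 0.894). Ptprc, for CD45, the phosphatase that keeps Lck active and that all white blood cells carry, stood at 781, 1361, 1375, 1770.01 and 687 CPM in Tumor replicates 1 to 5 and 70.9, 147, 348, 606 and 121 CPM in WT replicates 1 to 5. The highest WT value, in replicate 4, was close to the lowest Tumor value, in replicate 5. Ptprc had a log2 fold change of 2.21 ± 0.76 (adjusted p = 0.158; called higher by DESeq2, adjusted p = 0.0294) and -0.56 ± 1.0 with T reference scaling (adjusted p = 0.585).

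Among the 4 kinases 1 rose, beside 1.37% of all tested genes. It was Zap70, which docks on phosphorylated CD3 chains (ENSMUSG00000026117, chromosome 1, 36761798 to 36782818, mm10). Zap70 was measured at 194, 217, 284, 266 and 229 CPM in Tumor replicates 1 to 5 and 11.9, 36.3, 7.98, 79.7 and 32.2 CPM in WT replicates 1 to 5. The Tumor libraries lay close together and above all WT libraries, among which replicate 4 was highest and replicate 3 lowest (17 reads). It rose by 2.82 ± 0.66 log2 units (adjusted p = 0.0342, held in 3 of the 10 fits without 1 library, up to 0.114), and its value with T reference scaling was -0.12 ± 0.77 (adjusted p = 0.884). Per kilobase, Zap70 stood at 0.637 to 11.7 times the density of reads over olfactory and vomeronasal receptor genes in WT, lowest in replicate 3.

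Lck, the Src family kinase that starts the cascade, had 610.3, 681, 889, 602 and 274 CPM in Tumor replicates 1 to 5 and 25.5, 61.2, 59.2, 219 and 61.7 CPM in WT replicates 1 to 5. WT replicate 4 was close to Tumor replicate 5, and the groups did not overlap. Lck did not pass in edgeR on TMM, at 2.84 ± 0.72 (adjusted p = 0.0521; called higher by DESeq2, adjusted p = 0.00118), and was at -0.073 ± 0.83 with T reference scaling (adjusted p = 0.932). Fyn, a second Src family kinase, found also outside T cells, had 131, 99.9, 198, 106 and 52.1 CPM in Tumor replicates 1 to 5 and 15.7, 25.2, 28.6, 103 and 27.2 CPM in WT replicates 1 to 5. Here the groups overlapped, with WT replicate 4 above Tumor replicates 2 and 5. Its log2 fold change was 1.56 ± 0.59 (adjusted p = 0.206) and -1.40 ± 0.76 with T reference scaling (adjusted p = 0.0808).

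The balance of Fyn and Lck within a library, which no scaling of libraries can move, had the smallest p of the 7 pairs. Reads per kilobase of Fyn for each read per kilobase of Lck came to 0.144, 0.0986, 0.149, 0.118 and 0.128 in Tumor replicates 1 to 5 and to 0.414, 0.276, 0.326, 0.315 and 0.298 in WT replicates 1 to 5. Each Tumor ratio was below each WT ratio, also for the WT libraries that differed most in other genes. The log2 ratio was -2.99 ± 0.24 in Tumor and -1.63 ± 0.22 in WT (SD, n = 5), a difference of -1.35. The exact permutation test (2-sided) gave p = 0.00794, which is the lowest p possible with 5 libraries a group. Adjusted over 7 pairs it was 0.0556, which does not pass. A pair that alone reaches the lowest p can have no smaller adjusted value, so it could not pass however far apart the groups were. The difference was -1.42 to -1.26 in the 10 sets that left out 1 library, -1.31 without WT replicates 1 and 2 and -1.42 without WT replicates 3, 4 and 5. In WT, Fyn stood at 1.57 to 10.3 times the density of reads over olfactory and vomeronasal receptor genes, and at 5.92 to 43.1 times in Tumor. For Lck these were 3.80 to 32.7 and 46.3 to 289 times. The part of such reads, and of Fyn from other cells, in this ratio was not tested.

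None of the other 6 pairs passed the same test before or after adjustment. The difference in log2 ratio, Tumor minus WT, was -0.61 for Nfatc3 over Nfatc2 (exact permutation test, p = 0.0556, adjusted 0.194) and 0.37 for Nfatc1 over Nfatc2 (exact p = 0.524, adjusted 0.917; 0.034 to 0.80 without single libraries). For the paired inhibitors it was -0.098 for Ubash3b over Ubash3a (exact p = 0.857), 0.011 for Dgka over Dgkz (exact p = 0.992) and 0.058 for Ptpn22 over Ptpn6 (exact p = 0.937), with adjusted values up to 0.992. The SDs of these 3 ratios were 0.40 to 1.18 log2 units within a group, larger than any of the 3 differences.

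**Figure D3:**
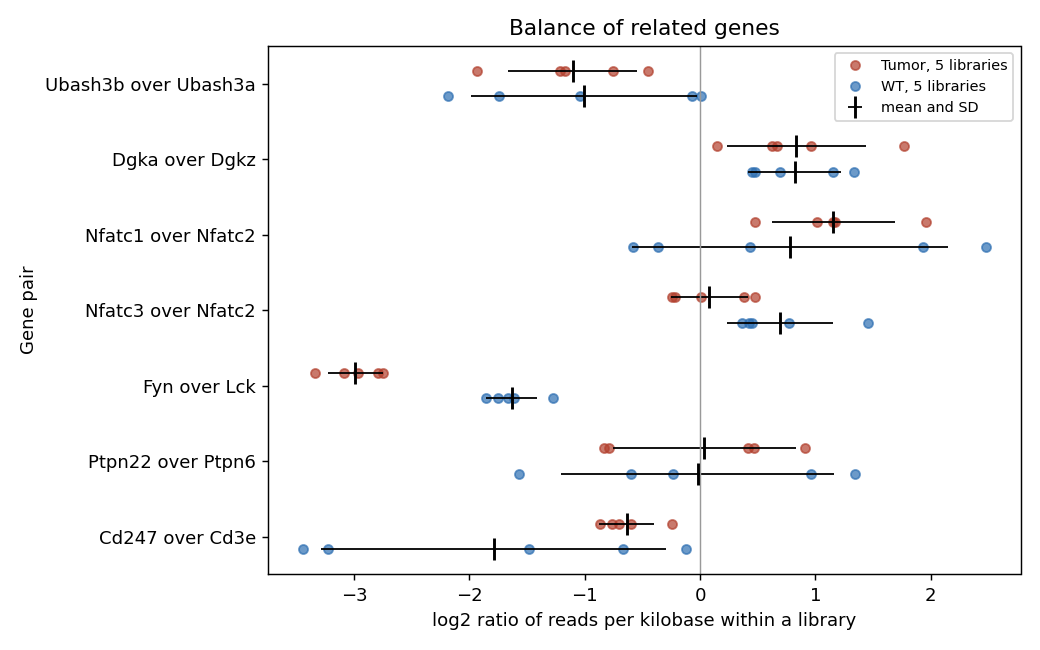
Log2 ratio of 2 related genes' reads per kilobase within each library (x axis) for 7 pairs (y axis), with 1 point per library and the mean and SD of each group. The groups are apart for Fyn over Lck, at means of -2.99 in Tumor and -1.63 in WT, and overlap for the other 6 pairs.

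Txk, a Tec family kinase of T cells, was the kinase with the smallest difference. It stood at 64.1, 67.5, 89.6, 116 and 24.1 CPM in Tumor replicates 1 to 5 and 19.4, 7.05, 61.5, 63.0 and 29.9 CPM in WT replicates 1 to 5. Tumor replicate 5 was below WT replicates 3, 4 and 5. It differed by 1.0 ± 0.60 log2 units (adjusted p = 0.409), and with T reference scaling Txk was called lower, at -2.16 ± 0.82 (adjusted p = 0.0168). Per kilobase, Txk stood at 0.528 to 2.51 times the density of reads over olfactory and vomeronasal receptor genes in WT. In Tumor it stood at 1.09 to 7.82 times. The part of such reads in this call was not tested.

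Of the 6 adaptors and exchange factors 1 rose, beside 1.37% of all tested genes. It was Lat, the membrane scaffold on which the signalling complex is built (ENSMUSG00000030742, chromosome 7, 126363824 to 126369570, mm10). Lat was at 623, 669, 792, 471 and 325 CPM in Tumor replicates 1 to 5 and 14.7, 70.3, 69.0, 75 and 25.9 CPM in WT replicates 1 to 5. The highest WT library, replicate 4, lay well below the lowest Tumor library, replicate 5. It rose by 3.50 ± 0.70 log2 units (adjusted p = 0.0178, held in 5 of the 10 fits without 1 library, up to 0.0677), and its value with T reference scaling was 0.53 ± 0.79 (adjusted p = 0.51).

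The partners of Lat did not pass in edgeR on TMM, and of them DESeq2 called Sh2d2a (adjusted p = 0.0213). Sh2d2a, an adaptor that binds Lck, ranged over 193 to 459 CPM in Tumor and 9.13 to 168 CPM in WT without overlap, at 2.50 ± 0.74 (adjusted p = 0.103). Lcp2, for the adaptor SLP-76 that also serves in myeloid cells and platelets, ranged over 92.2 to 296 CPM in Tumor and 16.8 to 116 CPM in WT, at 1.90 ± 0.62 (adjusted p = 0.144). The groups overlapped for Lcp2, through WT replicate 3. Vav1, an exchange factor for Rac, ranged over 24.5 to 156 CPM in Tumor and 9.26 to 67.3 CPM in WT, at 1.73 ± 0.62 (adjusted p = 0.178). Themis, an adaptor known from thymocyte selection, ranged over 17.7 to 70.8 CPM in Tumor and 6.22 to 31.3 CPM in WT, at 1.64 ± 0.62 (adjusted p = 0.207). Its level per kilobase was 0.245 to 0.776 times the receptor gene density in WT and 0.749 to 4.48 times in Tumor, so its WT values were not above that density.

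Grap2, for the adaptor GADS that joins Lat to SLP-76, was the adaptor with the smallest difference. Its values were 69.1, 156, 176, 143 and 49.8 CPM in Tumor replicates 1 to 5 and 14.3, 17.3, 39.0, 109.5 and 66.2 CPM in WT replicates 1 to 5. WT replicates 4 and 5 lay within the Tumor range. It differed by 1.27 ± 0.62 log2 units (adjusted p = 0.319), and -1.90 ± 0.80 with T reference scaling (adjusted p = 0.0275), where Grap2 was called lower and Sh2d2a (-0.059 ± 0.74), Lcp2 (-1.18 ± 0.76), Vav1 (-1.39 ± 0.82) and Themis (-1.94 ± 0.96) were not. Per kilobase, Grap2 stood at 0.999 to 7.68 times the receptor gene density in WT and 3.95 to 26.8 times in Tumor. The part of such reads in the call of Grap2 was not tested.

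The 8 effectors and transcription factors gave 0 calls on TMM, beside 1.37% of all tested genes called higher. Of the 8, 4 had an unadjusted p below 0.05, beside 7.75% of tested genes higher at that level. DESeq2 called Plcg1, where it called 3.18% of tested genes higher. All 8 overlapped between groups, where 4.38% of tested genes had every Tumor library above every WT library. The median log2 fold change of the 8 was 1.23 on TMM and -2.03 with T reference scaling. Plcg1, which makes the second messengers of the receptor, had the largest value of the block. It stood at 126, 203, 223, 151 and 70.9 CPM in Tumor replicates 1 to 5 and 15.4, 41.9, 73.7, 28.4 and 28.1 CPM in WT replicates 1 to 5. Only WT replicate 3 lay within the Tumor range. The log2 fold change was 2.05 ± 0.57 (adjusted p = 0.0783) on TMM and -1.18 ± 0.76 with T reference scaling. Exons of Plcg1 overlap those of Zhx3 on the other strand, with 1097 reads against 4138 for Plcg1.

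In the diacylglycerol branch, Rasgrp1, the Ras exchange factor, stood at 49.7, 82.5, 119, 127 and 66.5 CPM in Tumor replicates 1 to 5 and 14.0, 13.0, 21.1, 47.7 and 68.0 CPM in WT replicates 1 to 5. WT replicate 5 was above Tumor replicates 1 and 5. The log2 fold change was 1.45 ± 0.56 on TMM (adjusted p = 0.216) and -1.98 ± 0.83 with T reference scaling (adjusted p = 0.0282, called lower). Prkcq, for protein kinase C theta, had 34.8, 51.4, 61.4, 40.3 and 45.2 CPM in Tumor replicates 1 to 5 and 6.79, 15.2, 127, 32.0 and 28.1 CPM in WT replicates 1 to 5. WT replicate 3 alone was above every Tumor library. Its TMM value of 0.16 ± 0.63 (adjusted p = 0.918) was the smallest of the 34 and became 1.23 without WT replicate 3. With RLE scaling, no composition factors and DESeq2 it turned negative, and with T reference scaling it was called lower at -2.69 ± 0.85 (adjusted p = 0.00616). Prkcq stood at 0.419 to 4.27 times the receptor gene density in WT and Rasgrp1 at 0.900 to 3.73 times. In Tumor these were 2.45 to 8.24 and 4.42 to 20.2 times. The part of such reads in the calls of Prkcq and Rasgrp1 was not tested.

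Bcl10 and Malt1, the adaptor and the protease of the complex that leads to NF-kappaB, did not pass on TMM. Bcl10 was at 55.1, 99.9, 58.9, 42.4 and 31.2 CPM in Tumor replicates 1 to 5 and 34.9, 56.0, 22.1, 39.3 and 9.53 CPM in WT replicates 1 to 5. WT replicate 2 was its highest WT library and lay above Tumor replicates 1, 4 and 5. Malt1 was at 157, 167, 209, 279 and 111 CPM in Tumor replicates 1 to 5 and 33.5, 27.4, 83.6, 183 and 59.0 CPM in WT replicates 1 to 5. WT replicate 4 was above Tumor replicates 1, 2 and 5. Their log2 fold changes were 0.82 ± 0.53 and 1.26 ± 0.61 (adjusted p = 0.453 and 0.318), and with T reference scaling both were called lower, at -2.56 ± 0.84 and -1.69 ± 0.79 (adjusted p = 0.00751 and 0.0449). Per kilobase, Bcl10 stood at 0.604 to 10.1 times the receptor gene density in WT and Malt1 at 1.25 to 6.84 times. In Tumor these were 3.39 to 13.5 and 4.68 to 17.6 times. The part of such reads in the calls of Bcl10 and Malt1 was not tested.

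The NFAT factors, which calcium signalling sends to the nucleus, did not pass on TMM. Nfatc1 ranged over 73.9 to 264 CPM in Tumor and 11.5 to 82.6 CPM in WT, at 1.59 ± 0.62 (adjusted p = 0.219) and -1.29 ± 0.76 with T reference scaling. Nfatc2 was at 52.0, 96.1, 106, 99.6 and 55.3 CPM in Tumor replicates 1 to 5 and 21.1, 13.7, 87.3, 24.0 and 33.1 CPM in WT replicates 1 to 5. Nfatc3 was at 75.3, 89.9, 118, 95.0 and 85.6 CPM in Tumor replicates 1 to 5 and 32.1, 41.9, 124, 45.5 and 49.4 CPM in WT replicates 1 to 5. For both, WT replicate 3 stood apart from the other WT libraries, and for Nfatc3 it was above every Tumor library. The log2 fold changes were 1.19 ± 0.55 for Nfatc2 and 0.66 ± 0.50 for Nfatc3 (adjusted p = 0.293 and 0.523), and both were called lower with T reference scaling, at -2.08 ± 0.81 and -2.50 ± 0.81 (adjusted p = 0.0198 and 0.00695). Per kilobase, Nfatc2 stood at 0.870 to 1.97 times the receptor gene density in WT and Nfatc3 at 1.19 to 2.93 times. In Tumor these were 2.44 to 9.48 and 3.19 to 9.53 times. The part of such reads in the calls of Nfatc2 and Nfatc3 was not tested. Exons of Nfatc3 overlap those of the epithelial splicing factor gene Esrp2 on the other strand, with 932 reads against 3056.

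Among the 10 negative regulators 0 passed on TMM, beside 1.37% of all tested genes called higher. Of the 10, 7 had an unadjusted p below 0.05, beside 7.75% of tested genes higher at that level. DESeq2 called Sla, Ubash3a, Ptpn6 and Csk, where it called 3.18% of tested genes higher. For 5 of the 10 the groups did not overlap, where 4.38% of tested genes had every Tumor library above every WT library. The median log2 fold change of the 10 was 1.66 on TMM and -1.72 with T reference scaling. Sla, an adaptor that promotes turnover of the receptor and is also found in myeloid cells, had the largest difference of this block. It stood at 618, 639.8, 929, 551 and 436 CPM in Tumor replicates 1 to 5 and 12.4, 35.8, 72.8, 201 and 77.6 CPM in WT replicates 1 to 5. All Tumor libraries were above all WT libraries, and WT replicate 4 was the highest WT library. The value of 2.99 ± 0.76 just missed the threshold (adjusted p = 0.0507) and was 0.16 ± 0.85 with T reference scaling, the only positive value of the block on that scale.

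Csk, the kinase that switches Lck off, and Pag1, the membrane adaptor that holds Csk, did not pass on TMM. Csk was at 129, 242, 159.6, 87.9 and 96.1 CPM in Tumor replicates 1 to 5 and 52.7, 71.4, 19.2, 39.3 and 31.3 CPM in WT replicates 1 to 5. The groups did not overlap, and WT replicates 1 and 2 were the highest WT libraries. Pag1 was at 21.4, 48.9, 42.7, 69.9 and 51.2 CPM in Tumor replicates 1 to 5 and 27.8, 33.6, 14.1, 31.7 and 20.4 CPM in WT replicates 1 to 5. Tumor replicate 1 was below 3 WT libraries. The log2 fold changes were 1.74 ± 0.54 and 0.87 ± 0.50 (adjusted p = 0.122 and 0.391), and with T reference scaling -1.83 ± 0.82 and -2.49 ± 0.86 (adjusted p = 0.0385 and 0.0103, both called lower). Per kilobase, Pag1 stood at 0.351 to 2.88 times the receptor gene density in WT and 1.11 to 5.39 times in Tumor. For Csk these were 1.23 to 15.7 and 12.7 to 40.6 times. The part of such reads in the calls of Csk and Pag1 was not tested.

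The phosphatases and their relatives lay between. Ptpn6, for SHP-1, ranged over 54.0 to 107 CPM in Tumor and 17.8 to 30.8 CPM in WT without overlap and had the smallest SE of the 34, at 1.79 ± 0.46 (adjusted p = 0.0544). Ptpn22, which acts on Lck and Zap70, ranged over 109 to 351 CPM in Tumor and 15.2 to 141 CPM in WT, at 1.59 ± 0.63 (adjusted p = 0.222). Its groups overlapped through WT replicate 4. Ubash3a and Ubash3b, 2 related proteins that dampen TCR signals, ranged over 64.9 to 284 CPM in Tumor and 11.2 to 62.0 CPM in WT for the first and 84.7 to 203 CPM in Tumor and 13.1 to 81.5 CPM in WT for the second. Neither overlapped between groups. Their log2 fold changes were 2.23 ± 0.60 and 1.83 ± 0.59 (adjusted p = 0.067 and 0.136). With T reference scaling these 4 genes were at -1.62 ± 0.83, -1.26 ± 0.77, -1.0 ± 0.76 and -1.16 ± 0.77, and none was called.

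Cblb, a ubiquitin ligase that restrains T cell activation, had 66.3, 103, 126, 119 and 36.7 CPM in Tumor replicates 1 to 5 and 30.2, 31.8, 84.5, 103 and 111 CPM in WT replicates 1 to 5. WT replicates 3, 4 and 5 lay within the Tumor range. Its log2 fold change on TMM was 0.33 ± 0.55 (adjusted p = 0.797) and turned negative with no composition factors. With T reference scaling Cblb had the lowest value of the 34, -3.05 ± 0.85 (adjusted p = 0.00296). Per kilobase, Cblb stood at 1.26 to 4.30 times the receptor gene density in WT and 1.74 to 11.4 times in Tumor. The part of such reads in this value was not tested. Dgka and Dgkz, the kinases that remove diacylglycerol, shared a pattern among WT libraries. Dgka was at 66.3, 171, 117, 119 and 94.3 CPM in Tumor replicates 1 to 5 and 77.7, 89.8, 16.4, 38.6 and 29.0 CPM in WT replicates 1 to 5. Dgkz was at 79.0, 65.9, 96.9, 79.9 and 80.8 CPM in Tumor replicates 1 to 5 and 45.9, 86.8, 8.45, 36.4 and 23.6 CPM in WT replicates 1 to 5. WT replicates 1 and 2 were the highest WT libraries for both. Their log2 fold changes were 1.17 ± 0.55 and 0.99 ± 0.55 (adjusted p = 0.304 and 0.376) on TMM and -2.47 ± 0.88 and -2.42 ± 0.86 with T reference scaling (adjusted p = 0.012 and 0.0116, both called lower). Per kilobase, Dgka stood at 0.824 to 15.5 times the receptor gene density in WT and Dgkz at 0.322 to 11.4 times. In Tumor these were 6.93 to 23.3 and 6.26 to 14.7 times. The part of such reads in the calls of Dgka and Dgkz was not tested.

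**Figure D4:**
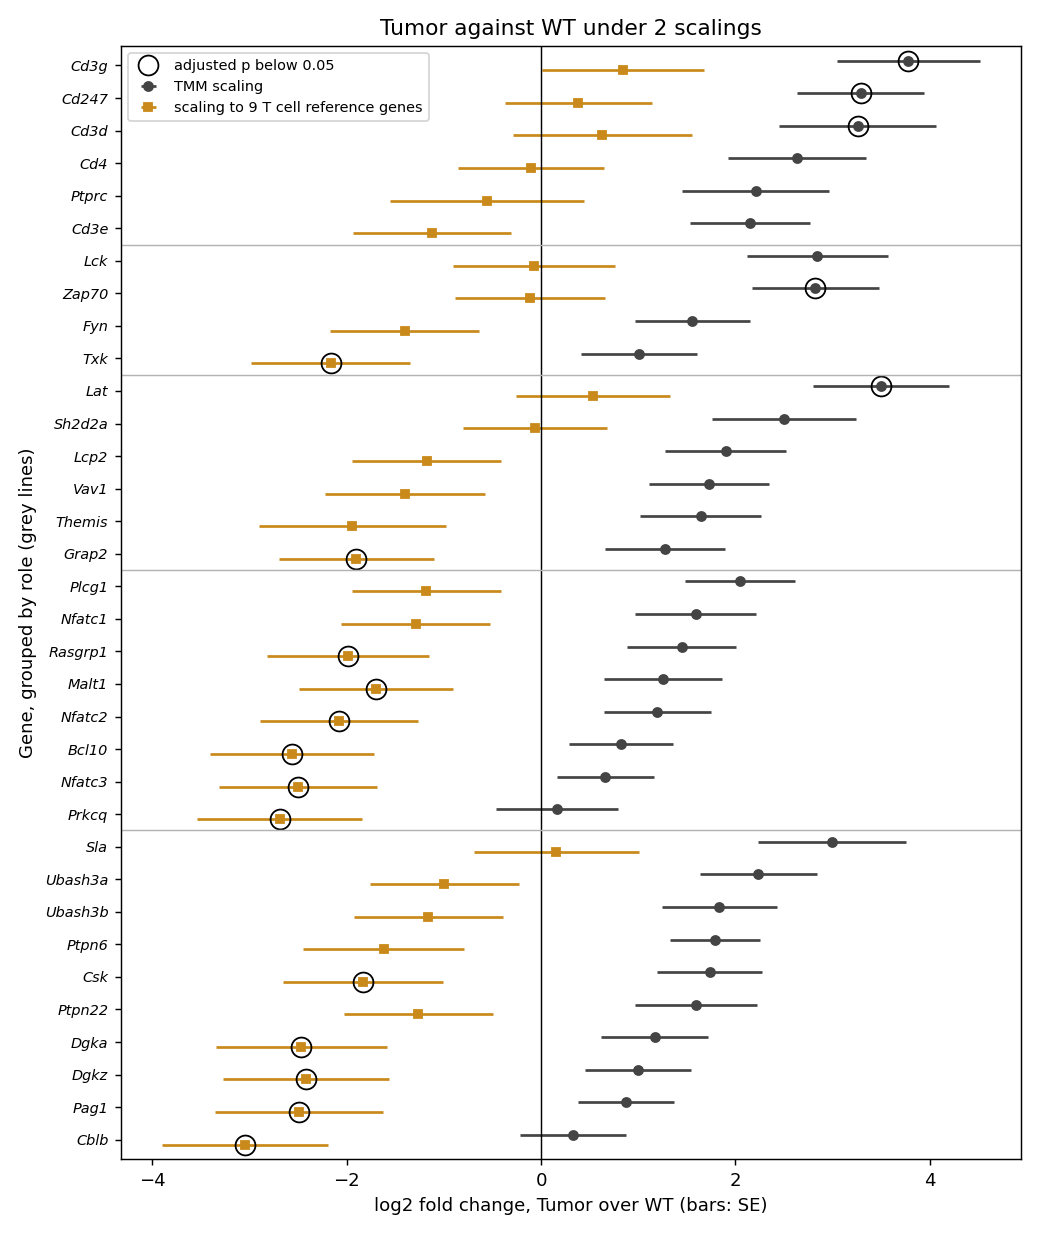
Log2 fold change of Tumor over WT with its SE (x axis) for each gene (y axis, grouped by role), on TMM (circles) and scaled to 9 T cell reference genes (squares), with rings where the adjusted p was below 0.05. All 34 TMM values are above 0, while 29 of the 34 T reference values are below 0, and the 5 above 0 are those of Cd3g, Cd3d, Cd247, Lat and Sla.

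By general knowledge 14 of the 34 genes are mostly of T and NK cells, and they held the 5 rises, a median log2 fold change of 2.57 and 10 genes without overlap. The 20 of wider expression held 0 rises (14 with an unadjusted p below 0.05), a median of 1.57 and 5 genes without overlap. Of all tested genes 1.37% rose, 7.75% were higher at an unadjusted p below 0.05, and 4.38% had every Tumor library above every WT library. With T reference scaling the medians of the 2 lists were -0.11 and -1.66. On that scale 3 of 14 and 10 of 20 were called lower, both below the 88.1% of all tested genes. No test compared these lists. In WT, the highest library was replicate 4 for 15 of the 34 genes, replicate 3 for 8, replicate 2 for 6, replicate 5 for 5 and replicate 1 for 0. The 6 with replicate 2 highest were Cd3g, Csk, Pag1, Bcl10, Dgka and Dgkz, and that library also held the most epithelial marker RNA.

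For some genes the difference depended on which WT libraries were compared. Without WT replicates 3, 4 and 5 the log2 fold changes of Dgka, Dgkz, Bcl10 and Pag1 were 0.43, 0.25, 0.32 and 0.60, and without WT replicates 1 and 2 they were 2.03, 1.83, 1.28 and 1.09. For Prkcq, Cblb, Txk and Malt1 the order was the opposite, at 2.03, 1.54, 2.52 and 2.62 against -0.39, -0.11, 0.51 and 0.76. Of the 5 called genes, Cd3g, Lat and Cd247 were at 3.69, 3.69 and 3.42 against 3.78, 3.36 and 3.14 in these 2 fits, and Cd3d and Zap70 at 4.04 and 3.24 against 2.87 and 2.56. Sla, Cd4 and Cd3e were at 4.66, 4.12 and 3.55 against 2.44, 2.11 and 1.68. With T reference scaling, 11 genes were called lower without WT replicates 1 and 2, against 53.0% of tested genes, and 11 without WT replicates 3, 4 and 5, against 69.6%. Cd3g was called higher without WT replicates 1 and 2, against 0.246% of tested genes.

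Of 62 other genes of the TCR pathway, all tested, 6 rose (Was, Rac2, Sit1, Sla2, Cd6 and Cd5) and 0 fell, beside the 1.37% and 0.219% of all tested genes, with a median log2 fold change of 0.68 and 50 positive values. None of the 62 fell by DESeq2 or at an unadjusted p below 0.05. At that unadjusted level 22 were higher, beside 7.75% of tested genes. Was, the actin regulator mutated in Wiskott-Aldrich syndrome, rose from 11.2 ± 9.89 to 71.5 ± 23.6 CPM (SD, n = 5), by 2.68 ± 0.58 log2 units. Rac2, a small GTPase of blood cells, rose by 3.70 ± 0.81, and Sit1, a membrane adaptor of lymphocytes, by 3.54 ± 0.80. Sla2, a relative of Sla, rose by 2.93 ± 0.66, and Cd6, a receptor that tunes the threshold of the TCR, by 2.88 ± 0.71. The adjusted p of these 5 was 0.0269 to 0.0441, and with T reference scaling none passed. On that scale Was was at -0.53 ± 0.92, Sla2 at -0.94 ± 0.95, Sit1 at 0.58 ± 0.95 and Rac2 at 0.93 ± 0.85. Cd6 and Cd5 are themselves among the 9 reference genes, so that scale pulls them toward 0 by construction and no value is given. Without Tumor replicates 1, 2, 3 or 4 or WT replicate 1, 0 of the 62 were called (15 to 20 were higher at an unadjusted p below 0.05 in those 5 fits). In the same fits, 63 to 120 of 22926 to 23669 tested genes were called higher, and 1296 to 1518 were higher at an unadjusted p below 0.05. Sos2, an exchange factor for Ras, had the largest negative value on TMM, -1.09 ± 0.54 (adjusted p = 0.33), and with T reference scaling it was called lower, at -4.49 ± 0.95 (adjusted p = 0.000734). On that scale 42 of the 62 were called lower and 0 higher, beside the 88.1% of all tested genes called lower. Among the Treg markers, Il2ra rose by 3.30 ± 0.81 on TMM (adjusted p = 0.0436) and was at 0.79 ± 0.79 with T reference scaling (adjusted p = 0.331). The values of Ctla4, Foxp3 and Ikzf2 were 3.86 ± 0.98, 2.48 ± 0.64 and 2.13 ± 0.67 on TMM (adjusted p = 0.0516, 0.056 and 0.127) and 1.37 ± 0.98, -0.70 ± 0.89 and -1.06 ± 0.89 with T reference scaling (adjusted p = 0.179, 0.441 and 0.25).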

How the data were processed

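The authors deposited raw, unnormalized read counts for 54532 genes in 10 libraries. Reads had been aligned to mm10, per the submitters' processing notes, which name HISAT2 2.0.5 along with featureCounts 1.5.0-p3. Annotation release, strandedness and treatment of multi-mapped reads are not given in the sources used here, so reads of overlapping genes cannot be told apart (exons of 11 of the 34 genes overlap another gene in GENCODE M21). Gene lengths are those of the deposited table. The 10 single-sample files held the same counts as the table, and all 45 pairs of libraries differed beyond sampling noise (chi-square over degrees of freedom at least 25.7).

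Group and replicate number came from the sample titles. In R 4.3.3, edgeR 4.0.16 (filterByExpr with a minimum count of 10 and total of 15, TMM, robust quasi-likelihood F test, 2-sided, group as the only term) was fitted to the whole table, and p-values were adjusted over all 21414 tested genes. Between libraries the biological coefficient of variation was 86.1% (common dispersion 0.742), so a gene that did not pass can differ several fold. CPM values are TMM scaled, except marker and T reference levels, which use the total count. The SE is the log2 fold change divided by the square root of F. T reference scaling used the geometric mean of 9 genes (count plus 0.5). Ratios of 2 genes used counts plus 0.5 per kilobase and an exact permutation test over libraries. The fits were run on simulated counts and the permutation test on simulated normal values, as a check of the code. The simulated counts had a lower dispersion than these libraries and, apart from 200 changed genes, the same mean levels in both groups. The check therefore does not show how the tests perform on these libraries. Reads carry no molecular identifiers, so counting error understates the error of a library. Alternatives used limma 3.58.1 and DESeq2 1.42.0.

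The genes, lists, scalings and alternatives were chosen with earlier results of these data known. Values in every library are given for called genes (on either scale), the CD3 chains, Cd4, Ptprc, Lck, Zap70 and Lat, the pair with the smallest p, and the extremes of each role group. Other genes of the 34 are given by range. Of the other pathway genes, 5 called genes with the smallest p and the largest fall are described. Of the 34 genes, 28 were matched by symbol in the RefSeq promoter table.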

Additional observations from a re-analysis of the deposited data

Results flagged for a closer look

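Of 82 groups of 5 values examined (68 of single genes and 14 of ratios), 7 held a library whose gap to the nearest other value took over 0.71 of the range, where chance flags about 1 group in 20, or 4.1 here. WT replicate 4 stood above the other WT libraries for Lck (219 CPM), Fyn (103 CPM) and Vav1 (67.3 CPM), and it was also the WT library with the highest T reference level. WT replicate 3 stood above the rest for Nfatc2 (87.3 CPM), Nfatc3 (124 CPM) and Prkcq (127 CPM), and it had the highest density of reads over olfactory and vomeronasal receptor genes, 4.19 CPM per kilobase. WT replicate 3 also held the most B and plasma cell marker RNA (3739 CPM) and dendritic cell marker RNA (375 CPM) of all 10 libraries. The part of any of these in the 3 values was not tested. Tumor replicate 3 stood above the other Tumor libraries for Cd247 (381 CPM) and had the highest T reference level of all 10 libraries.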

How the results depend on the processing

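The count of 5 of the 34 genes called higher became 15 with DESeq2, 17 with limma voom and sample weights, 11 without a filter on low counts, 2 with the replicate block, 10 without WT replicates 1 and 2, 25 without WT replicates 3, 4 and 5, 0 with T reference scaling and 0 to 9 without single libraries. Among all tested genes, 682, 710 and 138 of 21414 were called higher with DESeq2, limma voom and the replicate block. Without a filter this was 479 of 51296, and with T reference scaling 19 of 21414. It was 1615 of 25230 without WT replicates 1 and 2, and 696 of 30040 without WT replicates 3, 4 and 5. The member count was 4 with RLE scaling, with no composition factors and with the filter of 10 CPM in 5 libraries. Beside it stood, in that order, 211 of 21414, 222 of 21414 and 243 of 11596 tested genes. The count called lower stayed at 0 except with T reference scaling, which gave 13, beside 88.1% of tested genes. On that scale without WT replicates 1 and 2 the count called higher was 1, beside 0.246% of tested genes. The 6 calls among other pathway genes became 3 with RLE scaling, 3 with no composition factors, 42 with T reference scaling (0 higher and 42 lower), 10 with DESeq2, 3 with the replicate block, 11 without WT replicates 1 and 2, 18 without WT replicates 3, 4 and 5 (17 higher and 1 lower) and 0 to 9 without single libraries. The 340 calls among all genes (293 higher and 47 lower) became 18878 with T reference scaling (19 higher and 18859 lower), 1651 with DESeq2, 824 with limma voom, 820 without a filter, 141 with the replicate block, 1993 and 1325 without those WT sets, and 65 to 417 without single libraries. Whether replicate numbers pair the samples is not stated. Same-numbered libraries had correlations of -0.14 to 0.040 in their deviations from the group means, and 0 of 5 Tumor libraries correlated best with its own number. Because WT libraries differed strongly in content, these correlations cannot tell whether samples were paired. The block kept the calls of Cd3g and Cd247.

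T reference scaling turned these log2 fold changes negative: Lck -0.073, Zap70 -0.12, Cd4 -0.10, Sh2d2a -0.059, Ubash3a -1.0, Ptprc -0.56, Cd3e -1.12, Plcg1 -1.18, Lcp2 -1.18, Ubash3b -1.16, Ptpn6 -1.62, Csk -1.83, Vav1 -1.39, Themis -1.94, Ptpn22 -1.26, Nfatc1 -1.29, Fyn -1.40, Rasgrp1 -1.98, Grap2 -1.90, Malt1 -1.69, Nfatc2 -2.08, Dgka -2.47, Txk -2.16, Dgkz -2.42, Pag1 -2.49, Bcl10 -2.56, Nfatc3 -2.50, Cblb -3.05, Prkcq -2.69, Foxp3 -0.70, Ikzf2 -1.06, Was -0.53 and Sla2 -0.94. Without WT replicates 1 and 2 that scale gave -0.25 for Sla, and without WT replicates 3, 4 and 5 it gave 0.10, 0.59 and 0.45 for Lck, Cd4 and Sh2d2a. On TMM-like scales Cblb was at -0.090 with no composition factors, -0.15 with the stricter filter and -0.11 without WT replicates 1 and 2, and Prkcq at -0.31, -0.29 and -0.39 there, -0.15 with RLE, -0.16 with DESeq2 and -0.15 to 1.23 without single libraries. The other 32 genes kept a positive value in every alternative except T reference scaling. Without single libraries the difference in log2 ratio ran over -0.39 to 0.16 for Ubash3b over Ubash3a, -0.22 to 0.18 for Dgka over Dgkz and -0.33 to 0.40 for Ptpn22 over Ptpn6. It was 0.025 for the first without WT replicates 3, 4 and 5, and -0.0032 and -0.53 for the others without WT replicates 1 and 2. No pair passed after adjustment under any of these alternatives. In each of them a pair that alone had the lowest possible p could not pass after adjustment, so this outcome says little about single pairs. The causes of these changes were not tested. Depth limits single WT values: Cd247, Cd3g and Cd3d had 25, 25 and 32 reads in WT replicate 5.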

Other observations

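Across the 34 genes the TMM log2 fold change was larger where the gene was more abundant in Tumor: against log2 of the mean Tumor CPM per kilobase, Pearson's r was 0.87 and Spearman's rho 0.89, and against gene length they were -0.42 and -0.56. These are descriptions over genes measured in the same 10 libraries, which are not independent replicates, and the Tumor level enters both sides of the first.

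Set per kilobase against the density of reads over olfactory and vomeronasal receptor genes, the 34 genes were at a median of 7.16 to 28.4 times that density in Tumor and 1.34 to 4.95 times in WT. Fewer than 2 times that density was seen for 0 to 3 of the 34 in the Tumor libraries, and for 25, 7, 18, 6 and 20 of them in WT replicates 1 to 5. Cd247 (0.614, 0.547 and 0.616 times in WT replicates 1, 3 and 5) and Zap70 (0.637 times in WT replicate 3) were below that density in single WT libraries. Cd3g was at 1.004 times in WT replicate 5, whereas Lat stood at 2.33 to 20.9 times and Cd3d at 2.32 to 55.6 times in WT.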
